A study of Homo sapiens with 2 samples.

Results

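Nuclear transfer RNA (tRNA) genes were examined for lactylation-marked chromatin in CAL27 cells, an established line derived from a human oral squamous cell carcinoma. The members are the regions of the deposited peak lists, on chromosomes 1 to 22 and X, at nuclear tRNA genes of the RefSeq annotation (GRCh38). A region belongs to them when it overlaps such a gene widened by 1 kb to both sides. Among called regions this rule uses position alone, but it was chosen with earlier results of these data known. The members number 457 of 93524 regions, 206 of 43413 in the untreated-labelled library and 251 of 50111 in the lactate-labelled library. They are read against 429 tRNA genes. A tRNA gene is called marked in a library when at least 1 region overlaps its widened window. RefSeq names a nuclear tRNA gene TR, the letter of the amino acid, the anticodon, a number for the family of identical mature sequences and a number for the copy. TRX stands for the initiator methionine tRNA, TRM for the elongator methionine tRNA and TRU for selenocysteine.

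tRNA genes are transcribed by RNA polymerase III. Their promoter lies inside the gene, in an A box and a B box that the factor TFIIIC binds, after which TFIIIB is placed upstream of the start and brings in the polymerase, which stops at a run of T just past the gene. The genome holds many near-identical copies of each kind, of which any given cell type uses a part. Lysine lactylation is the addition of a lactyl group to lysine, on histones and other proteins, and the antibody used here recognises lactyl-lysine in any protein.

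The study used CUT&Tag, in which a transposase held at the antibody cuts and tags nearby DNA. There were 2 libraries of bulk CAL27 cells, 1 untreated and 1 given 10 mM lactate for 24 hours. Each condition has 1 library, so no difference between them could be tested, and the exact Clopper-Pearson 95% intervals below cover counting error alone. Each list is inconsistent about its own origin: its name line matches the label, but its peak names, its run name and its input file name the other sample. Libraries are therefore called "untreated-labelled" and "lactate-labelled", and every direction between them would turn if the lists had been exchanged. In bulk cells, a higher share of cells with the mark and more of it per cell cannot be told apart. No library without the antibody, with an unspecific antibody or with a histone antibody was used here.

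The lists rest on 15696147 tags for the untreated-labelled library and 15120031 for the lactate-labelled library. Of 13 squamous epithelial marker genes, 7 and 8 had a region at a gene end in the untreated-labelled and lactate-labelled libraries, and of 16 marker genes of blood, fibroblasts, endothelium and neurons 9 and 7 did, so regions at marker genes did not set the line apart from other cell types.

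Of the 429 tRNA genes, 14 lie wholly inside the RefSeq start window of a neighbouring gene (GRCh38.p14, 250 bases before to 50 bases after a start) and held a B box match, as searched below. Their sequence could be read from that window. Shown are 6 of them for different amino acids, all marked in both libraries, and the unmarked copy that shares its sequence with the proline gene. Each runs 5′ to 3′ on the coding strand, with 30 flanking bases on both sides. Capitals mark the B box match and the next TTTT within those 30 bases.
TRF-GAA1-5 (chr13:94549650-94549722, minus strand): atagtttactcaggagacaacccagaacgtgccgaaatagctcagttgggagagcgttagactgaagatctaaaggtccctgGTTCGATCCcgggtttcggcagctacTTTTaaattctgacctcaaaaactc
TRI-TAT2-2 (chr6:27020346-27020439, plus strand): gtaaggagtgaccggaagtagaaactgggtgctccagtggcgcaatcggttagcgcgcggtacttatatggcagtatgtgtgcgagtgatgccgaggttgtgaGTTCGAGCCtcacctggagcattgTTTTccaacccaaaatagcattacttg
TRR-ACG2-1 (chr3:45688999-45689071, minus strand): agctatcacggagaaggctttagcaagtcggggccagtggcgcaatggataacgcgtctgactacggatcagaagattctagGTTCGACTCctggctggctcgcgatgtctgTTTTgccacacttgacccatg
TRH-GTG1-3 (chr1:148281365-148281436, plus strand): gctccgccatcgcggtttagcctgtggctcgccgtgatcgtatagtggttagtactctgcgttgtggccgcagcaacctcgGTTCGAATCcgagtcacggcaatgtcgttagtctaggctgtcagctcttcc
TRA-AGC2-2 (chr6:28863685-28863756, minus strand): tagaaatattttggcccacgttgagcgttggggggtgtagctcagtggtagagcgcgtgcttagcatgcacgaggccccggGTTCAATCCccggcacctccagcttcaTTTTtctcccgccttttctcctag
TRP-TGG3-2 (chr14:20684016-20684087, plus strand): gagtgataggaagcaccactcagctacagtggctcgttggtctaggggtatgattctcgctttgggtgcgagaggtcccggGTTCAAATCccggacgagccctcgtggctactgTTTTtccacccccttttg
TRP-TGG3-5 (chr16:3188094-3188165, plus strand): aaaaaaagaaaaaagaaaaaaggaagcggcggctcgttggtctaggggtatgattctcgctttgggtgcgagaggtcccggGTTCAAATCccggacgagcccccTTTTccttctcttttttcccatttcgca

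The B box was searched as GTTCGANNC or GTTCAANNC on both strands, and the strand of each gene was taken as the one with the match in its later part, since the table of genes used here has no strand. Of the 14 genes, 10 held GTTCGANNC and 4 held GTTCAANNC. Over all 35116 start windows of 300 bases, which include those 14 genes, 0.829% held GTTCGANNC and 1.76% held GTTCAANNC. A TTTT stood within 30 bases downstream in 11 of the 14. Genes without a match in their later part were left out, so its presence in all 14 was fixed in advance. Of the 14, 7 were marked in both libraries, 2 in the lactate-labelled library alone and 5 in neither.

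Just under 50% of tRNA genes lay within 1 kb of a region in the untreated-labelled library and nearly 60% in the lactate-labelled library. In the untreated-labelled library 211 of 429 genes were marked (49.2%, interval 44.4 to 54.0%), and in the lactate-labelled library 253 were (59.0%, 54.2 to 63.7%). Of tiles of 2073 bp, the width of a median tRNA window, 3.26% and 3.74% overlapped a region. Of 19821 protein-coding genes, 44.0% and 50% had a region within 1 kb of an end, a rule with 2 windows per gene. Other genes for short RNAs, widened in the same way, had lower shares, of 31.5% and 32.9% of 149 small nuclear RNA genes, 5.63% and 6.97% of 1190 small nucleolar RNA genes, and 10.7% and 12.2% of 1911 microRNA genes, many of the last 2 kinds lying inside longer genes.

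With the lists as deposited, 201 tRNA genes were marked in both libraries (46.9%), beside 40.2% of protein-coding genes, and 166 genes (38.7%) were marked in neither. The lactate-labelled library alone marked 52 genes (12.1%, 9.19 to 15.6%), against 9.76% of protein-coding genes. The untreated-labelled library alone marked 10 (2.33%, 1.12 to 4.24%), against 3.76%. The higher count of the lactate-labelled library did not hold with lists of equal length. When each list was cut to its 21706 strongest regions by fold enrichment, 111 tRNA genes were marked in the untreated-labelled library and 107 in the lactate-labelled library, so that the order turned, and 72 genes were marked in both against 35 and 39 in the lactate-labelled and untreated-labelled library alone. Of the 52 genes marked in the lactate-labelled library alone, 6 had a region of the other library within 2 kb and 21 within 5 kb.

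Most of the regions overlapped a tRNA gene itself, though fewer had their summit inside one. The position at the centre of a tRNA gene was inside a region for 32.6% of genes in the untreated-labelled library and for 39.2% in the lactate-labelled library. Between 5 and 10 kb away, with both sides counted separately, the median share of positions inside a region was 2.1% and 2.68%. Over chromosomes 1 to 22 and X, 0.521% and 0.636% of positions lay inside a region. The 355 tRNA genes with no protein-coding gene end within 2 kb showed the same shape, with 28.7% and 33.8% at the centre. Of the regions, 144 of 206 and 171 of 251 touched the tRNA gene itself. The median distance from a region's summit, a local maximum of pileup, to the centre of the nearest gene was 116 bp and 133 bp. Where a region held several summits, the one of highest fold enrichment was used. Within 100 bp lay 93 summits (45.1%) and 105 summits (41.8%). Inside a tRNA gene lay 49 and 54 summits.

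**Figure D1:**
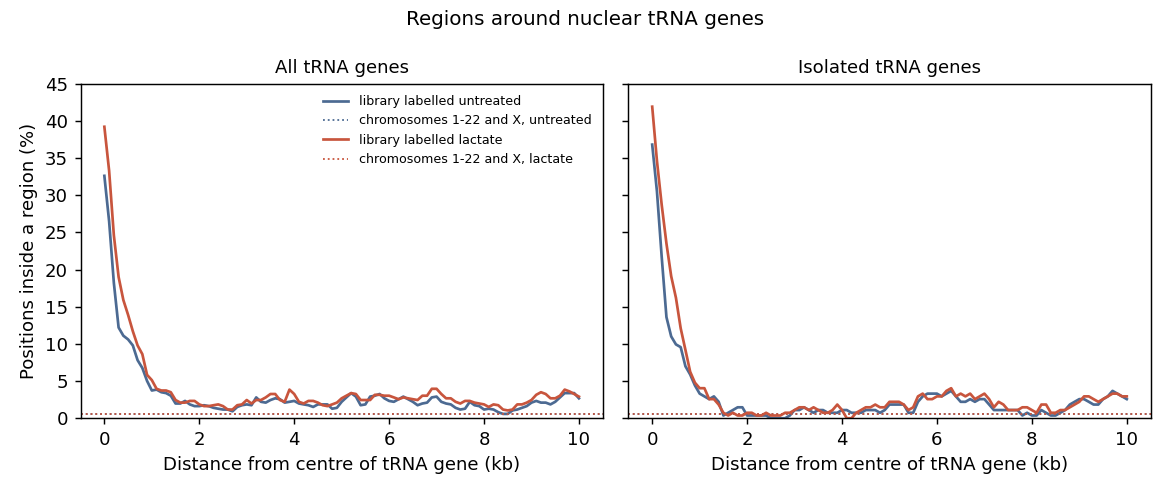
Share of positions (vertical axis, percent) at a given distance from the centre of a tRNA gene (horizontal axis, kb) that lie inside a region. Beyond the centre each gene gives 1 position on each side, counted separately. All 429 genes are on the left and 136 isolated genes on the right. Solid lines are the untreated-labelled and lactate-labelled libraries and dotted lines the share over chromosomes 1 to 22 and X. The lines start at 32.6% and 39.2% for all genes and at 36.8% and 41.9% for isolated genes, and fall to a few percent beyond 1 kb.

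In strength these were ordinary regions of their lists. Fold enrichment, the pileup at the summit over the local background as the peak caller gave it, had a median of 4.55 in the untreated-labelled library (4.63 over all regions) and 4.69 in the lactate-labelled library (4.87 over all regions). The median pileup, the number of overlapping extended tags, was 17 and 19, against 14 and 15 over all regions. The background recomputed from both values was higher too, with medians of 2.77 and 3.0 against 2.12 and 2.18. The regions were somewhat longer, at a median of 354 and 413 bp against 304 and 319 bp. More of them held several summits, 18.9% and 26.7% against 12% and 14.6%. Only 12 and 10 of them reached the top 10% of their list by fold enrichment, and the highest values, 8.88 and 11.2, stood far below the list maxima of 36.6 and 40.9.

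The glutamate genes with anticodon TTC included the gene of highest fold in both libraries. TRE-TTC3-1, a glutamate tRNA gene on the short arm of chromosome 1, had the highest fold enrichment of all tRNA genes in both. Its region chr1:16872620-16873443 had a pileup of 37 and a fold of 8.88 in the untreated-labelled library, and the overlapping region of the lactate-labelled library a pileup of 50 and a fold of 11.2. TRE-TTC4-1, another glutamate gene on the same arm, had folds of 7.34 and 8.53, with pileups of 26 and 36. TRE-TTC2-1 on chromosome 13 had folds of 7.37 and 8.5, with pileups of 31 and 42. All 3 glutamate genes stood higher in the lactate-labelled library, and none lay within 2 kb of a protein-coding gene end. They are among the strongest genes of that library, so no direction is read from that.

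The rest of the 10 strongest genes in the untreated-labelled library carry glycine, histidine, cysteine, glutamate, serine, alanine and glutamine. TRG-CCC2-1, a glycine gene 198 bp from an end of TIA1, which encodes an RNA-binding protein of stress granules, had a fold of 8.88, against 7.14 in the lactate-labelled library. TRH-GTG1-5, a histidine gene in the chromosome 6 domain, had 8.73 against 5.99. TRC-GCA17-1, a cysteine gene on chromosome 7, had 8.27 against 7.19 with a pileup of 21 in both. TRE-CTC1-3 and TRG-TCC2-3 shared 1 region with a fold of 7.92 against 4.76. TRS-GCT4-1 inside SCAND3 had 7.56 against 4.55, TRA-AGC1-1 had 7.54 against 5.0 and TRQ-TTG1-1 on chromosome 17 had 7.51 against 5.80. Each of these 8 genes was lower in fold in the lactate-labelled library. They were picked for a high value in the other library, so no direction is read from that.

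In the lactate-labelled library the strongest genes after TRE-TTC3-1 were TRP-CGG2-1, TRG-CCC5-1, TRA-TGC5-1, TRT-AGT1-3, TRE-TTC4-1, TRE-TTC2-1, TRV-AAC1-1, TRA-CGC2-1 and TRE-CTC1-7. TRP-CGG2-1, a proline gene on chromosome 6, had a fold of 10.0 against 7.14 in the untreated-labelled library. TRG-CCC5-1, a glycine gene on chromosome 1, had 8.80 against 5.49, and its pileup was 46 against 26. TRA-TGC5-1 had 8.72 against 5.94, TRT-AGT1-3 had 8.62 against 5.96 and TRV-AAC1-1, 1094 bp from an end of MYNN, had 8.39 against 6.10. TRA-CGC2-1 had 8.33 against 6.54 and TRE-CTC1-7, 797 bp from an end of NCOA7, had 7.60 against 5.42. These folds are those of each gene's strongest region in each library, which need not be the same place. At the pair of regions with most overlap, TRE-CTC1-7 had 5.06 against 5.42 and TRA-TGC5-1 8.72 against 5.0. All of these were marked in both libraries. They were picked for a high value in the lactate-labelled library, so no direction is read from their higher folds there.

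The genes of highest fold per amino acid in the untreated-labelled library were spread over 8 chromosomes, and the leaders named here are of that library alone. Beside those already named, TRI-TAT2-1 led isoleucine with folds of 6.97 and 5.19, TRR-TCG5-1 led arginine with 6.97 and 6.72, and TRV-AAC1-5 led valine with 6.65 and 6.70. On chromosome 14 lay TRY-GTA4-1 for tyrosine (6.75 and 7.0), TRL-TAG2-1 for leucine (6.61 and 6.69) and TRT-TGT3-1 for threonine (6.27 and 5.44), with pileups of 52 to 76 in the untreated-labelled library and 52 to 81 in the lactate-labelled library. TRF-GAA1-5, whose sequence is shown above, led phenylalanine (6.25 and 6.70), TRK-TTT9-1 lysine (5.96 and 4.84), TRD-GTC2-8 aspartate (5.93 and 7.06) and TRN-GTT7-1 asparagine (5.81 and 4.96). TRM-CAT4-2 led elongator methionine (5.60 and 4.91) and TRW-CCA4-1 tryptophan (4.83 and 4.65). Thus 21 of the 22 kinds had at least 1 gene marked in both libraries, and selenocysteine had none.

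By amino acid, histidine, initiator methionine and proline genes had the highest shares marked, and selenocysteine, elongator methionine and cysteine genes the lowest. Marked in the untreated-labelled and lactate-labelled libraries were 7 and 8 of 9 histidine genes (77.8% and 88.9%), 6 and 8 of 8 initiator methionine genes, and 14 and 16 of 20 proline genes (70.0% and 80%). Leucine had 20 and 22 of 32, serine 16 and 20 of 26, arginine 15 and 18 of 26, and glutamine 12 of 19 in each library. Close to the share over all tRNA genes lay threonine (10 and 13 of 20), glutamate (8 and 9 of 15), aspartate (7 and 8 of 13), tyrosine (7 of 13 in each), valine (14 and 18 of 30) and phenylalanine (5 and 7 of 11). Below it were lysine (12 and 13 of 27), alanine (16 and 18 of 37), tryptophan (3 of 7 in each), asparagine (8 and 10 of 21) and isoleucine (8 and 10 of 23). Glycine had the largest gap between the libraries in number of genes, with 12 and 19 of 30. Cysteine had 8 and 10 of 29 genes marked (27.6%, 12.7 to 47.2%, and 34.5%), and elongator methionine 3 and 4 of 11. Neither of the 2 selenocysteine genes was marked, which allows a share of up to 84.2%. The intervals of neighbouring kinds overlapped along the whole order.

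**Figure D2:**
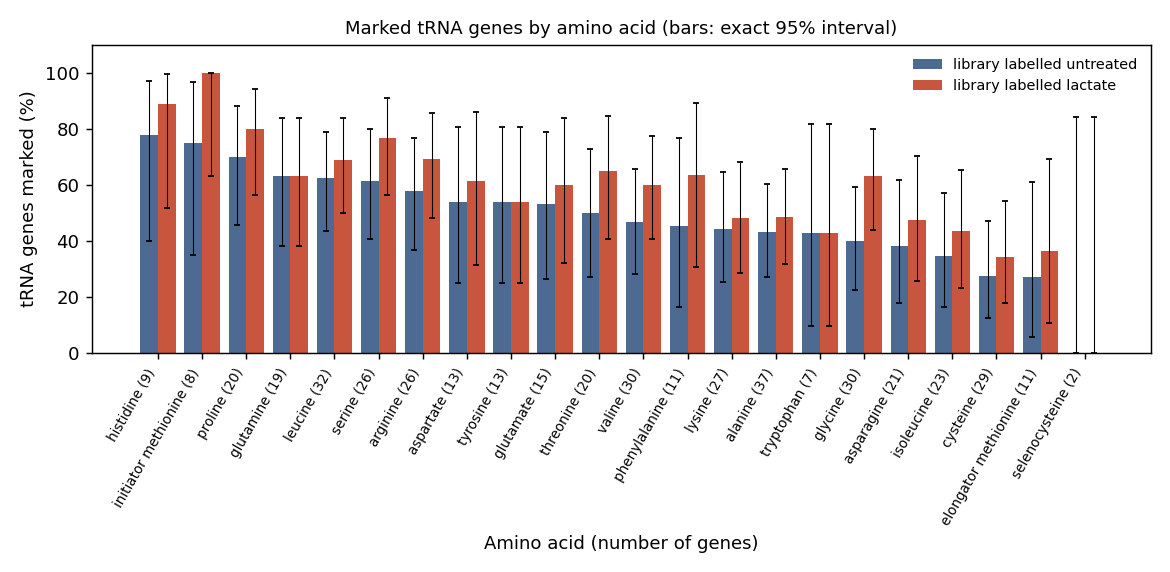
Share of tRNA genes marked (vertical axis, percent) by amino acid (horizontal axis, number of genes in brackets), in order of the share in the untreated-labelled library. Bars are the untreated-labelled and lactate-labelled libraries, and lines the exact 95% intervals. Shares run from 77.8% for histidine to 27.3% for elongator methionine and 0 for selenocysteine in the untreated-labelled library, and the intervals of neighbouring kinds overlap.

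Counts by anticodon were small, and no difference between anticodons was tested. All 4 leucine genes with anticodon TAA and all 4 proline genes with CGG were marked in both libraries, and 6 of 7 leucine genes with CAA were marked in each. Alanine genes with TGC were marked in 7 of 8 cases in each (87.5%, 47.3 to 99.7%), and alanine genes with AGC in 6 and 8 of 25 (24.0%, 9.36 to 45.1%, and 32.0%, 14.9 to 53.5%). Lysine genes with CTT had 4 of 14 in each library and those with TTT 8 and 9 of 13, with overlapping intervals. Isoleucine genes with AAT had 4 and 6 of 15, those with TAT 4 of 5 in each, and those with GAT none of 3. Arginine genes with TCT had 3 and 6 of 6, and serine genes with GCT 4 and 7 of 8. These anticodons were named after their values were seen.

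The initiator methionine genes, which read the start codon, are 8 identical copies on chromosomes 1, 6 and 17. TRX-CAT1-1, 257 bp from an end of ILF2, had folds of 5.83 and 6.99, and TRX-CAT1-2, 992 bp from the histone gene H4C8, had 5.78 and 5.92. TRX-CAT1-3 had 5.93 and 6.07, and TRX-CAT1-6 had 5.63 and 6.62. TRX-CAT1-7 was weak in both, at 3.60 and 3.88. TRX-CAT1-5 was higher in the untreated-labelled library, at 5.22 against 3.52. TRX-CAT1-4 (3.75) and TRX-CAT1-8 (2.72) were marked in the lactate-labelled library alone. The selenocysteine genes TRU-TCA1-1 and TRU-TCA2-1 had their nearest region 2468 bp or farther away in either library.

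Isolated tRNA genes and grouped ones had overlapping intervals of the share marked. A gene was called isolated when no other tRNA gene lay within 10 kb. Of 136 isolated genes, 68 and 83 were marked (50%, 41.3 to 58.7%, and 61.0%, 52.3 to 69.3%). Of 70 genes in pairs 39 and 48 were marked, and of 223 genes in groups of 3 or more 104 and 122 (46.6%, 39.9 to 53.4%, and 54.7%, 47.9 to 61.4%). The median fold of marked isolated genes was 5.31 and 5.19, of marked genes in pairs 4.83 and 5.2, and of marked genes in groups of 3 or more 4.41 and 4.61, differences that were not tested. Of the 6 isolated genes of highest fold, 3 were shared by both libraries, all glutamate genes. The others were TRG-CCC2-1, TRC-GCA17-1 and TRQ-TTG1-1 in the untreated-labelled library, and TRG-CCC5-1, TRT-AGT1-3 and TRV-AAC1-1 in the lactate-labelled library. In groups, 54 and 64 regions marked 2 or more genes at once, up to 4 genes, so neighbouring tRNA genes are not independent, while the intervals treat them as if they were.

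A protein-coding gene end nearby went with marking. Of 74 tRNA genes with such an end within 2 kb, 55 were marked in the untreated-labelled library (74.3%, 62.8 to 83.8%) and 70 in the lactate-labelled library (94.6%, 86.7 to 98.5%). Of the other 355, 156 (43.9%, 38.7 to 49.3%) and 183 (51.5%, 46.2 to 56.9%) were. Only 4 of the 166 genes marked in neither library had such an end within 2 kb, against 55 of the 201 marked in both. Which of the neighbouring genes a region belongs to was not tested. TRL-AAG2-4, a leucine gene 188 bp from an end of POLR3E, a subunit of RNA polymerase III itself, shared with it a region of fold 3.85 and 5.95. Inside protein-coding genes lay 43 tRNA genes, of which 23 and 31 were marked.

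The chromosome 6 domain, at chr6:26286526-28989083, is the largest tRNA gene domain and lies among histone and zinc finger genes. Domains here join tRNA genes within 500 kb of each other and hold at least 10. It holds 144 of the 429 genes, for 19 of the 22 kinds, and 68 and 79 of them were marked (47.2%, 38.9 to 55.7%, and 54.9%, 46.4 to 63.2%). All other tRNA genes had 143 and 174 of 285 (50.2% and 61.1%). Of 1063 tiles of the domain without a tRNA window 5.17% and 6.3% overlapped a region. The domain marked 66 genes in both libraries, 13 in the lactate-labelled library alone and 2 in the untreated-labelled library alone, and 63 in neither.

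Within the chromosome 6 domain the marking was uneven along the chromosome. The genes named for each block are those of highest fold in the untreated-labelled library. From 26286526 to 26331515, 7 and 9 of 13 genes were marked, and TRX-CAT1-3, TRS-TGA3-1 and TRQ-TTG3-2 had the highest fold, 5.93 each. The next block, 26521208 to 26828299, had 8 of 31 marked in both libraries (25.8%, 11.9 to 44.6%), led by TRY-GTA6-1 (6.33 and 4.66) and TRR-ACG1-2 (6.12 and 5.77), and 23 genes unmarked in both. From 27020346 to 27335062, 8 and 11 of 21 were marked, led by TRH-GTG1-5 and TRP-CGG2-1. The block from 27478812 to 27795932 had the highest share among blocks of at least 10 genes, 22 and 25 of 33 (66.7%, 48.2 to 82.0%, and 75.8%), led by TRV-AAC1-5 and TRQ-TTG3-3 (6.47 and 4.21). From 28474552 to 28989083, 20 and 23 of 43 were marked, led by TRS-GCT4-1 and TRA-AGC1-1. The intervals of the 25.8% and the 66.7% block did not overlap. The 25.8% block holds identical copies unmarked in both libraries, such as TRA-AGC14-1 and TRA-AGC14-2, and TRM-CAT5-1 and TRM-CAT5-2. How reads that fit several copies were handled is not stated here, so unmarked and unreadable copies cannot be told apart there. Some of these are alanine genes with anticodon AGC, so the same limit holds for the share of that anticodon. A smaller set of 6 tRNA genes farther along, chr6:57800211-57856473, had none marked in either library, which allows a share of up to 45.9%.

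The chromosome 1 domain, chr1:161399700-161612029, had 9 and 12 of 32 genes marked (28.1%, 13.7 to 46.7%, and 37.5%, 21.1 to 56.3%), and 18 were unmarked in both libraries. The other 53 tRNA genes of chromosome 1 had 21 and 28 marked (39.6%, 26.5 to 54.0%, and 52.8%, 38.6 to 66.7%), with intervals that overlap those of the domain. The domain holds a tandem repeat in which glutamate (TRE-CTC1), glycine (TRG-TCC2 and TRG-GCC1), aspartate (TRD-GTC2) and leucine (TRL-CAG1) genes recur at steps of 7360 to 7431 bp. At the start of the repeat, TRD-GTC2-1 and TRL-CAG1-1 were marked in the lactate-labelled library alone, and TRG-GCC1-1 in the untreated-labelled library alone. The stretch after them, from TRE-CTC1-2 to TRL-CAG1-5 over 24 kb, holds 19 genes, of which 17 were marked in neither library. The other 2, TRE-CTC1-3 and TRG-TCC2-3, shared the only region that either library had in the stretch, chr1:161453915-161454348 in the untreated-labelled library, whose edge lies 260 bp from TRE-CTC1-3. The input files' names carry the word uni, and what was done with reads that fit several copies of the repeat is not stated here, so unmarked and unreadable copies cannot be told apart there.

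Outside the repeat, too, some of these families had marked copies. TRL-CAG1-6 and TRG-TCC2-6, in the same domain, shared a region of fold 3.01 in the untreated-labelled library and 7.10 in the lactate-labelled library. TRL-CAG1-7 on chromosome 6 led the leucine genes with anticodon CAG, at a fold of 5.97 in the untreated-labelled library. TRE-CTC1-7, on the long arm of chromosome 6, had 5.42 and 7.60, the latter not at the region that best overlaps the former. TRG-GCC1-5, the strongest glycine gene with anticodon GCC, had 6.38 in the untreated-labelled library.

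The other domains ranged widely. The chromosome 14 domain, chr14:20609336-20684087, had 12 of 14 genes marked in both libraries (85.7%, 57.2 to 98.2%), while none of its 19 tiles without a tRNA window was marked in the untreated-labelled library and 1 was in the lactate-labelled library. It also had the highest pileups, with a median of 47 over 12 regions and of 51 over 13, and the highest recomputed background, with medians of 8.66 and 9.9 against 3.3 and 3.37 outside domains. Its folds, at medians of 4.04 and 4.32, were no higher than outside domains, 4.81 and 4.71. The chromosome 5 domain had 10 and 12 of 17 marked, the chromosome 17 domain 10 and 13 of 18, through 5 and 6 regions, and the chromosome 16 domain 6 of 14 in each library. The chromosome 7 domain, mostly cysteine genes, had 4 of 19 marked in each library (21.1%, 6.05 to 45.6%). Cysteine genes elsewhere had 4 and 6 of 11 (36.4%, 10.9 to 69.2%, and 54.5%), with intervals that overlap those of its 18 cysteine genes. All 8 tRNA genes of a small set at chr11:59550629-59566452 were marked in both libraries.

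**Figure D3:**
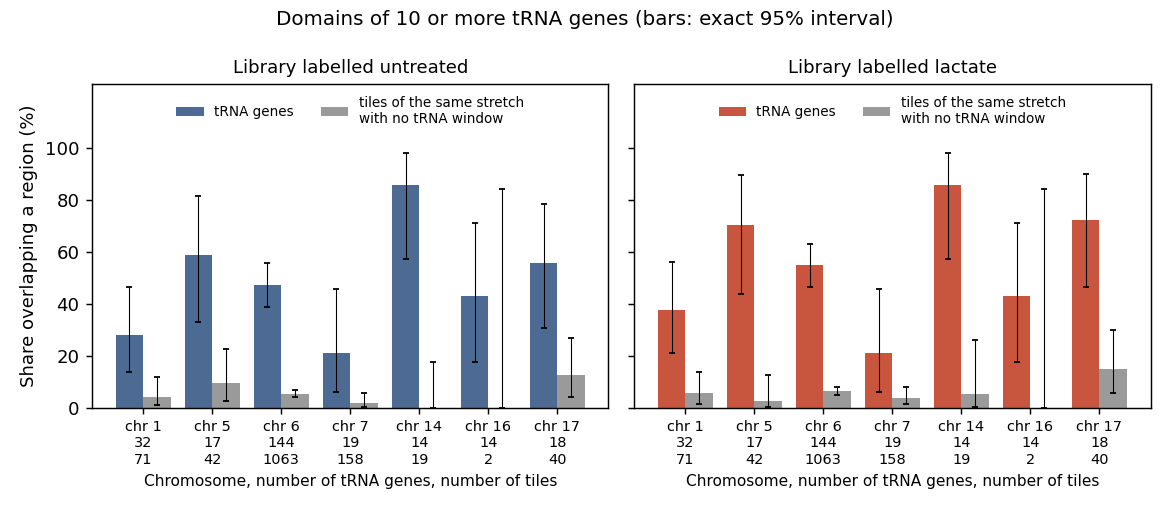
Share of tRNA genes (coloured bars) and of tiles without a tRNA window in the same stretch (grey bars) that overlap a region (vertical axis, percent), for the 7 domains of 10 or more genes (horizontal axis: chromosome, number of genes, number of tiles). Lines are exact 95% intervals. The chromosome 14 domain stands highest at 85.7%, the chromosome 7 domain lowest at 21.1%, and the tiles at 15% or less.

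Identical copies were often marked unequally. Of 256 families, 57 have several copies, 222 genes in all and up to 11 in a family. In 6 of these 57 families every copy was marked in both libraries (TRA-AGC8, TRL-CAA1, TRL-CAG2, TRP-CGG1, TRQ-TTG3 and TRR-TCT3), in 8 no copy was marked in either, and in 34 some copies were marked and others were not in either library. Genes of multi-copy families had 118 and 139 of 222 marked (53.2%, 46.4 to 59.9%, and 62.6%), and genes without an identical copy 92 and 112 of 199 (46.2%, 39.2 to 53.4%, and 56.3%). The symbols of 8 genes carry no copy number and were left out of these counts. Counted by family, 139 and 160 of 256 had at least 1 marked copy.

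The proline family TRP-TGG3, of which 2 copies are shown above, holds 5 genes. TRP-TGG3-1 was marked at folds of 2.75 and 3.46, TRP-TGG3-2 at 3.61 and 4.32, and TRP-TGG3-3 at 3.28 and 5.58. TRP-TGG3-4 was marked in the untreated-labelled library alone (3.09), and TRP-TGG3-5 in neither. TRP-TGG3-2 lies 90 bp from an end of ANG, which encodes angiogenin, a ribonuclease that cuts tRNAs under stress, and had pileups of 49 and 77. The regions with those pileups end at chr14:20683546 and chr14:20683772, short of the gene, and also marked TRY-GTA5-5. TRP-TGG3-5 lies 39 bp from an end of the olfactory receptor gene OR1F1, and its nearest region was 4509 bp and 1278 bp away. The 72 bases of both genes are identical, while only 23 of 89 upstream bases (25.8%) and 22 of 88 downstream bases (25%) match in place.

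The histidine family TRH-GTG1 holds 9 genes, of which 7 were marked in both libraries, TRH-GTG1-1 in the lactate-labelled library alone and TRH-GTG1-2 in neither. TRH-GTG1-3 on chromosome 1 had folds of 4.61 and 4.93 and TRH-GTG1-9 on chromosome 15, 35 bp from an end of SHF, 4.39 and 4.61. Their 72 bases are identical, and 26 of 84 upstream bases match in place (31.0%). The nearest region edge lay 634 bp and 587 bp from TRH-GTG1-3, in the untreated-labelled and lactate-labelled libraries, and 563 bp and 582 bp from TRH-GTG1-9. Both copies were thus marked from the side and not over the gene.

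The share of regions that overlapped the other list was higher at tRNA genes than over all regions. Of 206 regions of the untreated-labelled library 174 overlapped a region of the lactate-labelled library (84.5%, 78.8 to 89.1%), against 71.3% of all its regions. Of 251 regions of the lactate-labelled library 175 did so (69.7%, 63.6 to 75.3%), against 61.1%. At the 174 shared regions the summit pileup divided by the library's tags in the lactate-labelled library over that in the untreated-labelled library had a median of 1.26 (quartiles 1.04 and 1.5), and 136 (78.2%) were above 1. Over all 30935 shared regions the median was 1.19, and 72% were above 1. At least 1.5 times higher were 42 (24.1%), beside 21.6% of all shared regions, and at least 1.5 times lower were 5 (2.87%), beside 2.89%. These shares are near those of all shared regions. Each of the 174 is a region of the untreated-labelled library, so a long lactate-labelled region could enter more than once. At TRQ-TTG1-1, 1 lactate-labelled region of pileup 28 gave 2.08 and 0.938 against neighbouring regions of pileup 14 and 31. All shared regions were paired in the same way. The exact interval of the ratio lay above 1 for 16 regions, the 2.08 at TRQ-TTG1-1 among them, and below 1 for none. That count was not made over all shared regions, whose median ratio also lies above 1, so it is not read as particular to tRNA genes.

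The 3 largest ratios were 2.88 at TRL-CAG1-6 and TRG-TCC2-6 (pileups of 9 and 25, interval 1.30 to 7.02), 2.56 at TRQ-TTG3-1, TRQ-TTG3-2 and TRS-TGA3-1 (13 and 32, 1.30 to 5.30), and 2.47 at TRN-GTT2-7 (8 and 19, 1.03 to 6.51). The 3 smallest were 0.581 at TRQ-TTG3-3 (25 and 14, 0.279 to 1.16), 0.611 at TRS-GCT4-1 (17 and 10) and 0.634 at TRE-CTC1-3 (18 and 11). The interval of 0.581 includes 1. The ratio of 2.56 rests on an untreated-labelled region of fold 2.99, and TRQ-TTG3-2 and TRS-TGA3-1 had another region of fold 5.93 in that library, against 6.52 in the lactate-labelled library.

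**Figure D4:**
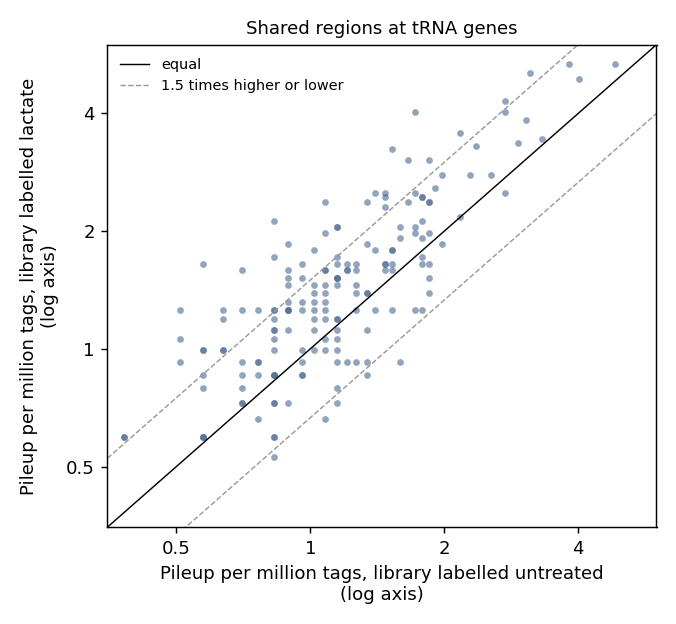
Summit pileup, scaled to the library's tags, at the 174 shared regions at tRNA genes, in the untreated-labelled library (horizontal, log axis) and in the lactate-labelled library (vertical, log axis). Each point is a region of the untreated-labelled library, so 1 lactate-labelled region can give several points. The solid line marks equal values and the dashed lines 1.5 times higher or lower. Most points, 136 of 174, lie above the solid line, with 42 on or above the upper dashed line and 5 on or below the lower one. Over all shared regions 72% lie above equality.

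In the lactate-labelled library alone the strongest were TRG-GCC2-1, 131 bp from an end of FCGR2A, with a fold of 7.19 and a pileup of 23, and TRT-CGT5-1 with 7.14 and 17. TRS-GCT1-1 followed at 6.64, a TRNAV-CAC gene at chr1:145161108-145161178 at 5.46, TRV-CAC2-1 at 5.36 and TRV-TAC1-2, the only marked gene of 4 on chromosome X, at 5.29. TRH-GTG1-1 and TRG-TCC2-1 shared a region of fold 5.26 and pileup 36. In the untreated-labelled library alone the strongest were TRC-GCA9-2 (4.82, pileup 10), TRQ-CTG5-1 (4.58), TRT-AGT2-2 (4.49), TRW-CCA5-1 (4.43), TRV-TAC3-1 (4.37), TRG-GCC1-1 (4.25), TRW-CCA1-1 (3.48) and TRE-TTC4-2 (3.17).

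The 1 kb limit decided the call of a gene only where no other region lay closer. Just inside it, the nearest region of TRG-GCC1-1 lay 980 bp away in the untreated-labelled library (fold 4.25), and that of TRD-GTC2-9 lay 974 bp away (4.61) and 956 bp away in the lactate-labelled library (4.73). Just outside it, the nearest region of TRV-CAC4-1 in the untreated-labelled library lay at 1016 bp (3.97), and that of TRP-TGG3-4 in the lactate-labelled library at 1082 bp (3.94). Some other genes with a region near the limit, such as TRK-CTT2-3 at 990 bp in both libraries, also had a region on the gene itself. For others the region near the limit was their strongest. Examples are TRX-CAT1-7 at 934 bp in the untreated-labelled library (3.60) and TRQ-CTG1-5 at 937 bp in the lactate-labelled library (3.43).

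The genes that encode the RNA polymerase III machinery were marked at their ends in most cases. Of 18 polymerase subunits 13 and 16 were marked (72.2%, 46.5 to 90.3%, and 88.9%, 65.3 to 98.6%), beside 44.0% and 50% of all protein-coding genes. POLR3F had folds of 7.09 and 7.72 and POLR3B, the second largest subunit, 6.80 and 8.54. POLR3C (4.8), CRCP (2.71) and POLR2E (5.56) were marked in the lactate-labelled library alone. Of 6 TFIIIC subunits 5 and 4 were marked, with GTF3C1 at 7.57 and 7.89, GTF3C2 at 7.07 and 5.71, and GTF3C6 (4.17) in the untreated-labelled library alone. Among 6 genes of TFIIIB, TFIIIA and regulators 4 were marked in each library. They included TBP, the TATA-binding protein (8.68 and 7.0), and MAF1, a repressor of the polymerase (4.97 and 5.13). BRF2 (3.97) was marked in the untreated-labelled library alone and GTF3A (2.72) in the lactate-labelled library alone. Of 5 subunits of SNAPc, which serves small nuclear RNA promoters, 4 were marked in both, with SNAPC1 at 5.93 and 7.69.

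Of 49 genes for tRNA maturation and export 35 and 37 were marked (71.4%, 56.7 to 83.4%, and 75.5%, 61.1 to 86.7%), beside 44.0% and 50% of all protein-coding genes. THG1L, which adds the extra guanine of histidine tRNA, had folds of 9.31 and 10.3, and ADAT2, a subunit of the enzyme that makes inosine at the wobble position, 9.18 and 7.20. RPP21 (6.0), FTSJ1 (6.09), PUS1 (4.29) and RPP25 (4.17) were among the 6 marked in the lactate-labelled library alone. QTRT1 (5.45), RPP14 (4.0), RTCB (3.93) and TRMT1 (2.81) were marked in the untreated-labelled library alone.

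Other genes read by RNA polymerase III, treated like the tRNA genes, had 17 and 21 of 37 marked (45.9% and 56.8%), close to the tRNA genes. Protein-coding gene ends near them were not counted, and which neighbouring gene a region belongs to was not tested. RPPH1, the RNA of the enzyme that trims the 5′ end of tRNAs, stood above every tRNA gene in pileup, at 127 and 165, with folds of 11.1 and 11.9. RN7SK had 7.25 and 8.96, RMRP 5.82 and 7.75, and RN7SL1 7.11 and 6.71. RN7SL2, a signal recognition particle RNA, had 5.38 and 10.2, with pileups of 27 and 62. The vault RNA genes VTRNA1-1 (6.01 and 5.67), VTRNA1-2 (5.11 and 5.36), VTRNA1-3 (8.52 and 10.8) and VTRNA2-1 (6.28 and 6.94) were marked in both, as were the Y RNA genes RNY1 (5.17 and 8.26) and RNY5 (7.82 and 5.95). Of 17 copies of the 5S ribosomal RNA gene, a tandem array, 4 were marked in both, RNA5S6 at 9.57 and 8.68, RNA5S12 at 7.06 and 7.04, RNA5S9 at 5.96 and 6.25 and RNA5S17 at 4.49 and 7.54. Among these 4, the region with the fold given overlapped the gene itself only at RNA5S9, and at the others it lay beside the gene. In this array, too, unmarked and unreadable copies cannot be told apart. RNU6-7 (5.26 and 4.57) and RNU6ATAC (5.08 and 4.8) were marked in both libraries. BCYRN1 (4.55), RNU6-1 (4.46), RNU6-2 (3.58) and RNU6-8 (4.90) were marked in the lactate-labelled library alone.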

How the data were processed

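CUT&Tag libraries of CAL27 cells with an antibody to lactyl-lysine were deposited as 2 peak lists, 1 per condition. The tools listed were BWA, MACS2 2.1.0 and fastp 0.20.0 with the hg38 build, per the submitters' processing notes. Per the file headers, MACS 2.1.0.20150420 called peaks in each library on its own, without a control, at a q-value of 0.05, with a shift of -100, an extension of 200 bp and a genome size of 3099750718. The pileup is a deposited signal, not scaled to depth, and the fold enrichment is a deposited ratio of pileup to local background. The input names carry the words uni and dedup. The aligner's version and the handling of reads with several matches are not given in the sources used here.

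Summits with the same chromosome, start and end were joined into 1 region, represented by its summit of highest fold. Background was recomputed as pileup plus 1, divided by fold, minus 1, and a Poisson p-value from it. tRNA genes came from the RefSeq table of GRCh38. It holds 465 tRNA rows, of which 22 mitochondrial rows and 14 on other sequences were left out, leaving 429. The table has no strand. Overlaps were computed with SciPy 1.17.1, NumPy 2.4.6 and pandas 2.3.3 in Python 3.11.15, gave the same counts with bedtools 2.31.1, and were tested on simulated data. Regions were shared if they overlapped by at least 1 bp. Pileups were divided by the library's tags for the ratio, with an exact conditional binomial interval. With 1 library per condition no p-value was computed between them.

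Genes named are the 10 of highest fold per library, the 8 highest in 1 library alone, the 6 isolated genes of highest fold, every initiator methionine and selenocysteine gene, the 2 highest per block of the chromosome 1 and 6 domains, the highest per amino acid, the 3 highest and lowest ratios, and members of the machinery lists marked in both or in 1 library. Others were named after their values were seen. The members and gene lists were chosen with earlier results of these data known.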

Additional observations from a re-analysis of the deposited data

Results flagged for a closer look

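Mitochondrial tRNA genes, which lie outside the nuclear set, also carried regions: 8 of 22 were overlapped in the untreated-labelled library and 9 of 22 in the lactate-labelled library, by 8 regions in each. They came to attention as a signal on sequence that the comparisons above do not use, with no control library to set it against, on DNA that histones do not package.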

How the results depend on the processing

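No paired analysis was possible because each condition has 1 library. Of 102 recomputed values 52 stayed close to the value reported and 50 moved, the latter in most cases because the alternative keeps fewer regions, genes or bases by construction. Shares below are given for the untreated-labelled and lactate-labelled libraries in that order. tRNA genes marked came to 44.1% and 53.1% with a window of 500 bp, to 35.7% and 43.4% for the gene itself with no widening, and to 63.9% in the lactate-labelled library with 2 kb. They were 21.7% and 27.5% at a fold of at least 5 (protein-coding genes 23.5% and 30.6%), 35.7% and 48.3% at a recomputed minus log10 p of at least 7 (32.8% and 40.3%), 25.9% and 24.9% with equal lists of the strongest regions (27.6% and 29.1%), and 43.9% and 51.5% with no protein-coding end within 2 kb. Genes marked in both libraries were 40.3%, 30.1% and 52.0% with windows of 500 bp, none and 2 kb, 16.3% at fold 5, 31.9% at minus log10 p 7, 16.8% with equal lists and 41.1% away from protein-coding ends. Genes marked in the lactate-labelled library alone were 16.3% at minus log10 p 7 and 8.16% with equal lists. Genes marked in the untreated-labelled library alone were 5.59% with no widening, 5.36% at fold 5 and 9.09% with equal lists.

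Regions overlapping the other library were 64.6% and 53.0% when 50% of each region had to overlap, 92.7% and 79.3% within 500 bp, and 67.1% and 54.4% at fold 5, and 63.0% in the lactate-labelled library at minus log10 p 7. At fold 5, isolated genes were 29.4% and 33.8% marked, grouped genes 18.1% and 24.6%, multi-copy families 22.5% and 29.7%, and single-copy families 21.6% and 25.6%. Isolated genes were 71.6% marked in the lactate-labelled library when genes were linked within 50 kb. With the median ratio over all shared regions set to 1, the median ratio at tRNA genes was 1.06, with 19 regions at least 1.5 times higher and 14 lower. With 50% of each region overlapping, 23 were higher. Genes with a protein-coding end within 5 kb were 84.9% marked in the lactate-labelled library. At fold 5, TFIIIC genes were 33.3% marked in the untreated-labelled library, polymerase subunits 55.6% in the lactate-labelled library, and maturation genes 51.0% and 57.1%. Without the 24 kb stretch of the chromosome 1 repeat and the chromosome 7 domain, 52.4% and 63.2% of 391 genes were marked. This alternative was chosen after seeing the data. Median pileups of 17 and 19 limit single ratios, and 16 of 174 intervals left out 1.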
